A study of Mus musculus with 10 samples.

Results

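The genes described here make fatty acids from citrate, lengthen them and put double bonds into them. They are Acly, Acaca, Fasn, Thrsp, Elovl6, Scd1, Scd2, Fads1, Fads2 and Srebf1, taken by name from the count files with no threshold on their values. All 10 were found among the 54532 genes of the count files, and all 10 had enough reads to be tested, among 18329 tested genes. Fatty acid synthesis starts in the cytosol, where citrate is cleaved to acetyl-CoA, acetyl-CoA is carboxylated to malonyl-CoA, and fatty acid synthase joins these units into palmitate. Elongases and desaturases of the endoplasmic reticulum turn palmitate and dietary fatty acids into the longer and unsaturated chains of membranes, myelin and stored fat, and SREBP-1, the product of Srebf1, is the transcription factor best known for switching these genes on. In the cochlea, lipid is needed for the myelin of the auditory nerve and for the membranes of the sensory and secretory epithelia.

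RNA was sequenced from the cochlea of 12-month-old mtKeima mice, which carry a transgene for a pH-sensitive fluorescent protein directed to mitochondria and have a mixed genetic background. The study asked which transcripts differ after long-term supply of a precursor of NAD+. The 5 NR-treated mice drank water that held nicotinamide riboside (NR) at 7 mg/ml, which is 24 mM, for 10 months from an age of 2 months. Regular water was given to the 5 non-treated mice, which the labels call Vehicle. Mice of both groups carried the transgene, and each library is 1 mouse. The labels describe the mice as female and the methods of the study describe males, while the Y-linked genes Ddx3y and Eif2s3y were expressed in all libraries, with means of 68.4 and 61.7 CPM in NR-treated and 76.2 and 63.2 CPM in non-treated mice. Xist, the transcript of the inactive X of females, had means of 0.277 CPM in NR-treated and 0.171 CPM in non-treated mice, too low to be tested. These levels are those of males, as in the methods. CPM is the number of reads of a gene per 1000000 reads counted on genes, with library sizes scaled by TMM. Between 17060379 and 24419230 reads were counted per mouse. All 8 hair cell markers and all 8 markers of the stria vascularis and fibrocytes were expressed above the filter on low counts. So were 18 of 20 adipocyte, 13 of 16 skeletal muscle and all 12 bone marrow markers, so passing this filter does not identify the tissue. In RNA of a whole tissue, fewer cells of a type and less RNA per cell cannot be told apart.

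Only 1 of the 10 genes was higher and 1 was lower in the NR-treated cochlea at the unadjusted p of 0.05 that the study used for its gene lists. Elovl6, the elongase that extends palmitate to stearate, was 1.17-fold higher, and Srebf1 was 0.806-fold its level in non-treated mice. Among all tested genes, 9.71% passed this threshold, 4.83% as higher and 4.88% as lower. For a group of 10, each gene is 10% of the group, so 1 gene in each direction does not set the group apart from that background. By the edgeR quasi-likelihood test with Benjamini-Hochberg adjustment 0 of the 10 genes passed an adjusted p of 0.05, as did 0 of all tested genes (0%), while DESeq2 called 0 of the 10 and 103 of all tested genes after adjustment. Before adjustment DESeq2 had 2 of the 10 higher and 2 lower, beside 10.5% of all tested genes in either direction. The log2 fold change was above 0 for 4 genes and below 0 for 6, with a median of -0.09, beside a median of -0.01 over all tested genes.

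**Figure D1:**
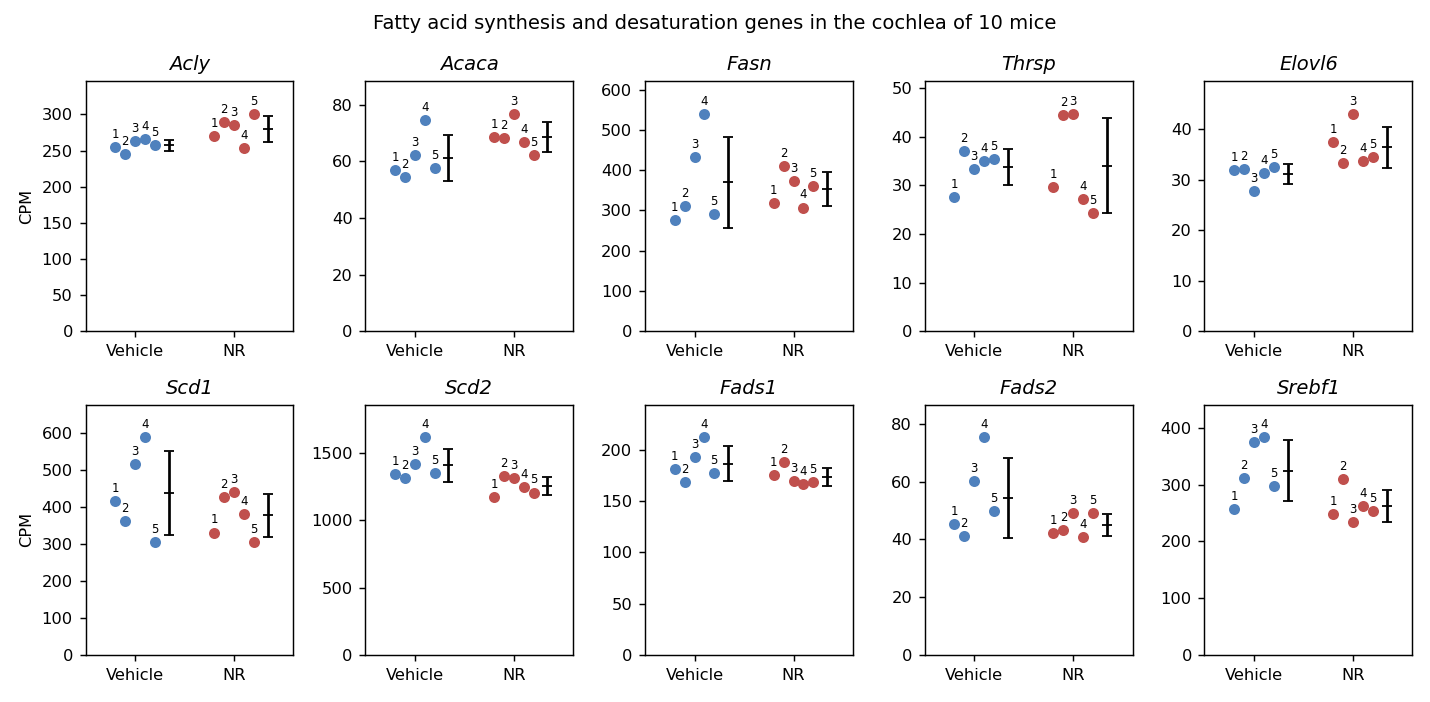
CPM of each gene (vertical axes from 0, a scale of its own for each gene) in the 5 Vehicle and 5 NR mice. Points are mice with their replicate number, and the bars show the mean and SD of each group. The groups do not overlap for Elovl6, and Vehicle 3 and 4 are the highest points of Fasn, Srebf1, Scd1, Scd2, Fads1 and Fads2.

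Upstream sequences are shown first for the genes whose values carry the comparison, Elovl6 and Srebf1, which passed the unadjusted threshold in opposite directions, and Fasn, a textbook target of SREBP-1, which was highest in the same mice as Srebf1. They are from RefSeq on GRCm38.p6, the mm10 build, and each covers the bases before a RefSeq start site that lie outside annotated exons. Capitals mark CCAAT, the letters bound by NF-Y, and GGGCGG, the letters of a GC box, on either strand, so that they also appear as ATTGG and CCGCCC. In the last capital run of Fasn, CCAAT and ATTGG overlap. The sequence of Elovl6 is at chr3:129532136-129532256 on the plus strand and holds none of these letters. It stops short of its RefSeq start site, at 129532386, because annotated exon bases lie between. The sequences of Srebf1 and Fasn run up to their start sites. Those of Srebf1 precede 3 start sites on the minus strand, at chr11:60222582-60222831, chr11:60220628-60220877 and chr11:60210472-60210721, and that of Fasn is at chr11:120824548-120824797 on the minus strand.
Elovl6: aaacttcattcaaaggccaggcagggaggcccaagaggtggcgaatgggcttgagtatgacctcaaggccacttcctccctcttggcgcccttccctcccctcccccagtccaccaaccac
Srebf1, start at 60222581: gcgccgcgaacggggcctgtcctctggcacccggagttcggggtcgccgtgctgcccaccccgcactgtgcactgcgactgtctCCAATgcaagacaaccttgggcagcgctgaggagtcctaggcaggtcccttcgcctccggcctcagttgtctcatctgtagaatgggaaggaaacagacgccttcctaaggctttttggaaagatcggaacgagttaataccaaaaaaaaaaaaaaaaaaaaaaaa
Srebf1, start at 60220627: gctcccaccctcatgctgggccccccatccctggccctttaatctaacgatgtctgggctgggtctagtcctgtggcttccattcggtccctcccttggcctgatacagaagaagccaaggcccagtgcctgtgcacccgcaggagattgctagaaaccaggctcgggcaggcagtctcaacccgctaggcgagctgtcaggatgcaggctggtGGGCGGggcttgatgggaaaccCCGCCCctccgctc
Srebf1, start at 60210471: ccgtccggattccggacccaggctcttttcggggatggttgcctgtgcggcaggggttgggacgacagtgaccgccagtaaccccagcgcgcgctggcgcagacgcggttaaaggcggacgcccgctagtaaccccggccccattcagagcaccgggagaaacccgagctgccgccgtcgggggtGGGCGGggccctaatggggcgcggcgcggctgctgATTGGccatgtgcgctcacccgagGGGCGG
Fasn: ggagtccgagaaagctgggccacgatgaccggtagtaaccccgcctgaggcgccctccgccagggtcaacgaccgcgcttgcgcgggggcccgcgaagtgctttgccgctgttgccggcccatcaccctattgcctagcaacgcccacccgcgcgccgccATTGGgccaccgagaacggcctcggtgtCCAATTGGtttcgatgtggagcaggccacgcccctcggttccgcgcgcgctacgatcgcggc

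Promoter windows of 300 bases were found for 7 of the 10 genes, with 9 start sites, and not for Scd1, Scd2 and Fads1. CCAAT was in 5 of the 9 windows and in 37.4% of all 32851 promoter windows. GGGCGG was in 4 of the 9 and in 35.7% of all windows. A sterol regulatory element written as TCACNCCAC was in 0 of the 9 windows and in 1.24% of all windows, and the E-box CACGTG was in 0 of the 9 and in 7.15%. These letters were searched on both strands, a match describes the letters only, and their absence from a window says nothing of binding by SREBP-1. The counts were made per gene, so reads from the 3 start sites of Srebf1 were not separated.

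Acly, at chr11:100476353-100528000, encodes ATP citrate lyase, which releases cytosolic acetyl-CoA. Its level in NR mice 1 to 5 was 270.2, 289, 285, 253 and 301 CPM, and in Vehicle mice 1 to 5 it was 255, 245, 263, 265 and 258 CPM. NR 4 was the only NR mouse inside the Vehicle range, and the other 4 were above every Vehicle mouse. The log2 fold change was 0.12 (SE 0.06, unadjusted p = 0.0541, adjusted p = 0.519 by edgeR), and its 95% confidence interval ran from -0.0025 to 0.24. The spread among Vehicle mice was small for this gene, with a coefficient of variation of 3.03%, compared with a median of 14.1% over all tested genes. The unadjusted p was 0.0292 by DESeq2, 0.0446 without NR 1, 0.0122 without NR 4, 0.0410 without Vehicle 3 and 0.0479 without Vehicle 4. With any other mouse left out it was 0.0706 to 0.101 by edgeR, so this gene sat at the edge of the threshold.

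Acaca, at chr11:84129672-84401651, encodes acetyl-CoA carboxylase 1, which makes malonyl-CoA and is the committed step of the pathway. NR mice 1 to 5 had 68.5, 68.3, 76.8, 66.6 and 62.3 CPM, while Vehicle mice 1 to 5 had 56.8, 54.3, 62.1, 74.7 and 57.7 CPM. Without Vehicle 4, every NR mouse was above every Vehicle mouse, and Vehicle 4 was above all NR mice except NR 3. The log2 fold change over all mice was 0.16 (SE 0.09, unadjusted p = 0.0928, adjusted p = 0.576 by edgeR). Without Vehicle 4 it was 0.25 (SE 0.07, unadjusted p = 0.00423, adjusted p = 0.472 by edgeR), and the unadjusted p was 0.0447 without NR 5. Vehicle 4 was the highest Vehicle mouse and NR 5 the lowest NR mouse, so leaving out either had to widen the difference. With any other mouse left out, the unadjusted p was 0.0805 to 0.170 by edgeR. Of the 100-base windows of Acaca transcripts, 23.7% also occur in other genes (Gm42553, Gm5182 and Mettl6), and how reads from these windows were counted was not tested.

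Fasn, at chr11:120805846-120824547, encodes fatty acid synthase, the enzyme that builds palmitate. Its CPM in NR mice 1 to 5 was 318, 410.2, 373, 307 and 360.0, and in Vehicle mice 1 to 5 it was 277, 311, 432, 540.3 and 292. The Vehicle mice lay in separate ranges, with Vehicle 3 and 4 above all NR mice, and Vehicle 1 and 5 below all NR mice. The means were 354 ± 42.0 CPM (SD, n = 5) with NR and 370.5 ± 113 CPM (SD, n = 5) without. The log2 fold change of -0.07 (SE 0.18, adjusted p = 0.916 by edgeR) had a 95% confidence interval from -0.46 to 0.33, so the data leave room for differences of that size in either direction. Its sign turned without Vehicle 3 (0.01) and without Vehicle 4 (0.11), neither of which passed the threshold.

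Thrsp, at chr7:97412938-97417730, encodes Spot 14, a small protein tied to lipogenesis in liver, fat and mammary gland. It had 24.3 to 44.8 CPM in NR mice and 27.6 to 37.2 CPM in Vehicle mice. NR 2 and NR 3 were above every Vehicle mouse, and NR 4 and NR 5 were below every Vehicle mouse, so the NR mice spread more widely than the Vehicle mice. The coefficient of variation among NR mice was 28.7%, beside a median of 11.4% over all tested genes, and the log2 fold change was 0.02 (SE 0.17, adjusted p = 0.983 by edgeR).

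Elovl6, at chr3:129532355-129638495, was the only gene of the 10 whose groups did not overlap. NR mice 1 to 5 had 37.4, 33.3, 43.1, 33.6 and 34.6 CPM, and Vehicle mice 1 to 5 had 31.9, 32.1, 27.8, 31.4 and 32.6 CPM. The lowest NR mouse, NR 2, was just above the highest Vehicle mouse, Vehicle 5, and the widest gap was between NR 3 and Vehicle 3. Over all tested genes the groups did not overlap for 1.65%, with every NR mouse above every Vehicle mouse for 0.769% and below for 0.878%. The means of 36.4 ± 4.08 and 31.1 ± 1.93 CPM (SD, n = 5 in each group) gave a log2 fold change of 0.23 (SE 0.08) with a 95% confidence interval from 0.05 to 0.41. The unadjusted p was 0.0180 and the adjusted p 0.459 by edgeR. Leaving out any 1 mouse kept the log2 fold change between 0.17 and 0.26 and the unadjusted p between 0.00924 and 0.0340. The unadjusted p was 0.0571 with the replicate number as a block and 0.0746 without both Vehicle 3 and Vehicle 4, past the threshold in neither. Elovl6 is an elongase with relatives in this tissue. In a list of 21 other elongation and desaturation genes, 19 were tested, and Elovl2, which elongates polyunsaturated fatty acids, was higher at 2.38 ± 0.369 against 1.79 ± 0.328 CPM (log2 fold change 0.41, SE 0.18, adjusted p = 0.505 by edgeR). The elongases Elovl1, Elovl4, Elovl5 and Elovl7 were more abundant than Elovl2. Their log2 fold changes were -0.0025, 0.06, -0.02 and -0.09, and none passed the unadjusted threshold by edgeR.

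Scd2, at chr19:44293676-44306864, and Scd1, at chr19:44394451-44407709, encode stearoyl-CoA desaturases, which make oleate and palmitoleate. Scd2 had 1176, 1331, 1318, 1251 and 1207 CPM in NR mice 1 to 5, and 1343, 1318, 1420.2, 1617 and 1353 CPM in Vehicle mice 1 to 5. NR 2 was the only NR mouse above any Vehicle mouse, NR 3 sat just below Vehicle 2, and Vehicle 4 was the highest. Its log2 fold change was -0.17 (SE 0.08, unadjusted p = 0.0529, adjusted p = 0.519 by edgeR). The unadjusted p was 0.0201 by DESeq2, 0.0435 with a robust dispersion, 0.0458 without NR 2 and 0.0469 without Vehicle 1. With any other mouse left out it was 0.0526 to 0.145 by edgeR, the highest without Vehicle 4, and with the replicate number as a block 0.0853.

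For Scd1 the groups overlapped. NR mice 1 to 5 had 331, 428, 439.6, 382 and 305 CPM, and Vehicle mice 1 to 5 had 415, 362, 515, 588 and 306 CPM. Vehicle 3 and 4 were the only mice above the NR mice, and Vehicle 5 was as low as NR 5. The log2 fold change was -0.21 (SE 0.17, adjusted p = 0.701 by edgeR), with a 95% confidence interval from -0.60 to 0.17. Scd1 shares 2.58% of its 100-base windows with other genes, Scd2 and its neighbours Scd3 and Scd4 among them, and Scd2 shares 0.879%.

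Fads1, at chr19:10182888-10196870, and Fads2, at chr19:10064164-10101503, encode the delta-5 and delta-6 desaturases of polyunsaturated fatty acid synthesis and lie next to each other. Fads2 had 42.4, 43.1, 49.2, 40.9 and 49.3 CPM in NR mice 1 to 5, and 45.3, 41.1, 60.3, 75.3 and 49.8 CPM in Vehicle mice 1 to 5. Vehicle 3 and 4 again stood above the rest, and the other 3 Vehicle mice lay in or next to the NR range. Its log2 fold change was -0.27 (SE 0.15, unadjusted p = 0.0922, adjusted p = 0.576 by edgeR). The unadjusted p was 0.0299 without Vehicle 2, the lowest Vehicle mouse, at a log2 fold change of -0.35. With any other mouse left out it was 0.0520 to 0.287 by edgeR, the highest without Vehicle 4. Fads1 ranged from 167 to 188 CPM with NR and from 169 to 212 CPM without, with 2 NR mice below every Vehicle mouse and a log2 fold change of -0.10 (SE 0.07, adjusted p = 0.631 by edgeR). Fads3, their neighbour in the same gene family, was lower in the NR-treated cochlea, at 68.1 ± 6.27 against 77.9 ± 8.05 CPM (log2 fold change -0.19, SE 0.08, unadjusted p = 0.0385 and adjusted p = 0.493 by edgeR).

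Srebf1, at chr11:60199089-60222581, had the lowest fold change of the 10. NR mice 1 to 5 had 249, 309, 234, 263 and 254 CPM, and Vehicle mice 1 to 5 had 257, 311, 375, 383 and 297 CPM. NR 1, NR 3 and NR 5 were below every Vehicle mouse, NR 2 and NR 4 were within the Vehicle range, and Vehicle 3 and 4 were the highest. The means were 262 ± 28.4 CPM with NR and 325 ± 53.4 CPM without (SD, n = 5 in each group), and the log2 fold change was -0.31 (SE 0.12) with a 95% confidence interval from -0.57 to -0.06. The unadjusted p was 0.0210 and the adjusted p 0.466 by edgeR. It passed the unadjusted threshold only with certain mice in the comparison. Without NR 1, NR 3 or NR 5 the log2 fold change was -0.29, -0.26 or -0.29, and the unadjusted p 0.0523, 0.0633 or 0.0508 by edgeR. Without Vehicle 3 or Vehicle 4 it was -0.24 or -0.24, and the unadjusted p 0.0670 or 0.0651. Exons of Rai1 on the opposite strand overlap 1.93% of the exon bases of Srebf1, and the counting took no account of strand.

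**Figure D2:**
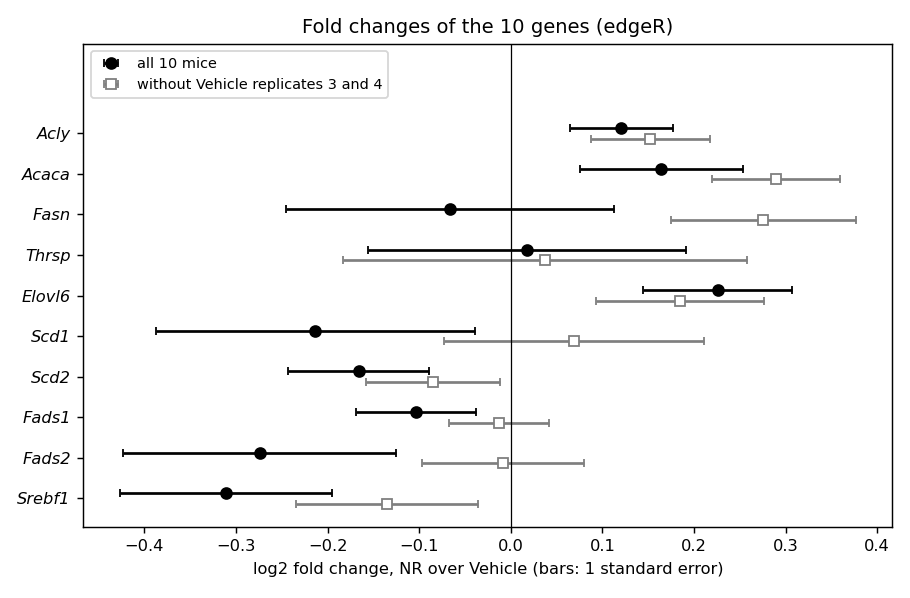
Log2 fold change, NR over Vehicle, of each gene by edgeR (horizontal axis), with bars of 1 standard error, in all 10 mice (filled circles) and without Vehicle replicates 3 and 4 (open squares). Fasn moves from -0.07 to 0.28 and Scd1 from -0.21 to 0.07, while Acly, Acaca, Elovl6 and Thrsp are above 0 in both. Vehicle 3 and 4 were left out after their values were seen. They are the highest Vehicle mice for Fasn, Scd1, Acly and Acaca, so these fold changes had to rise. They are the lowest for Elovl6, so that fold change had to fall.

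Vehicle 3 and 4 were the highest mice for much of the group. Vehicle 4 was the highest of the 10 mice for Fasn, Srebf1, Scd1, Scd2, Fads1 and Fads2, and Vehicle 3 was next to it for each of these 6. NR 3 was the highest for Acaca, Elovl6 and Thrsp, and NR 5 for Acly. In Elovl6 the order was the other way, with Vehicle 3 and 4 as the lowest mice of all. The coefficient of variation of Fasn was 30.5% among Vehicle mice and 11.9% among NR mice, that of Scd1 was 26.1% and 15.6%, and that of Fads2 was 25.3% and 8.82%. Over all tested genes the medians were 14.1% among Vehicle mice and 11.4% among NR mice. The spread was the other way round for Acly, Elovl6 and Thrsp, which varied more among NR mice.

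The same Vehicle mice also stood apart in markers of cochlear cell types. The 8 hair cell markers summed to 347 CPM in Vehicle 3 and 390 CPM in Vehicle 4, and to between 124 and 224 CPM in the other 8 mice. All 8 of these markers had a log2 fold change below 0, 0 passed the unadjusted threshold, and the summed ranges were 124 to 224 CPM with NR and 130.3 to 390 CPM without. The lowest of them by mean was Slc26a5, at 1.23 and 1.75 CPM. The 8 markers of the stria vascularis and fibrocytes summed to 6829 and 6673 CPM in Vehicle 3 and 4 and to between 3579 and 5483 CPM in the others, with 4 of 8 lower in the NR-treated cochlea at the unadjusted threshold and ranges of 3579 to 5483 CPM with NR and 4094 to 6829 CPM without. The 12 bone marrow markers were lowest in these mice, at 8262 and 5965 CPM, beside 11511 to 19932 CPM in the others. So were the 8 neuron markers, at 3925 and 4182 CPM beside 4529 to 5893 CPM in the others. Their part in the levels of the fatty acid genes was not tested.

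**Figure D3:**
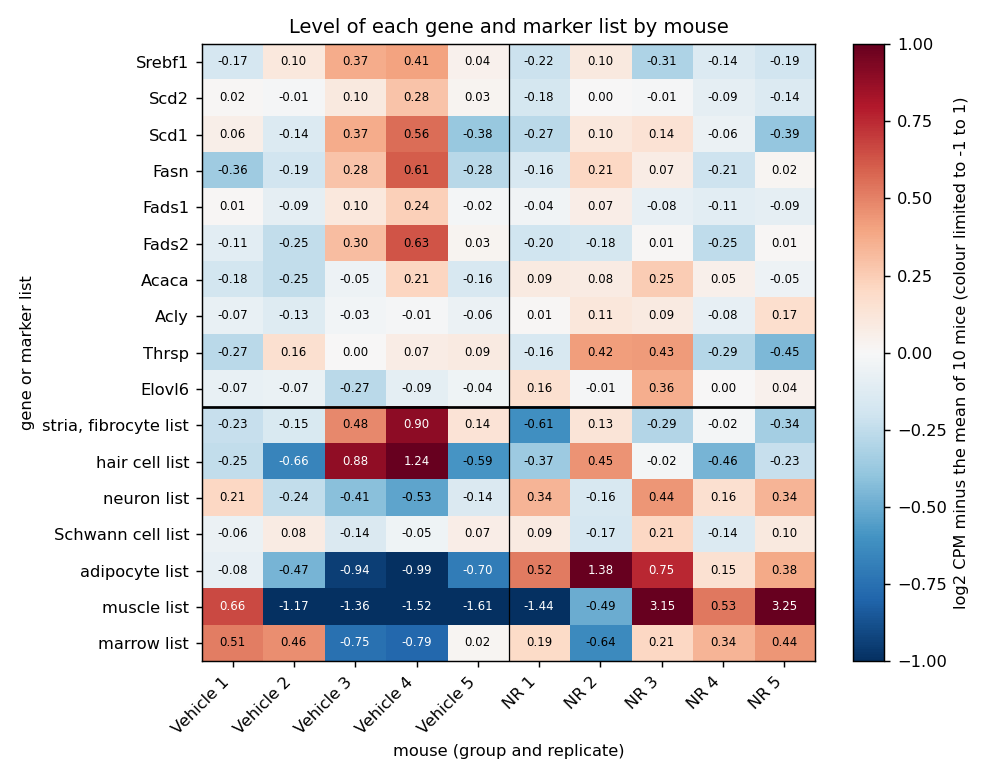
Deviation of each of the 10 genes and of 7 marker lists from its mean over the 10 mice, in log2 CPM (colour, limited to -1 to 1, with the value written in each cell), for each mouse (columns). Vehicle 3 and 4 are above the mean for Srebf1, Scd2, Scd1, Fasn, Fads1 and Fads2 and for the hair cell and stria lists, and below it for Elovl6.

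With Vehicle 3 and 4 left out together, a choice made after their values were seen, 3 of the 10 genes were higher and 0 were lower at the unadjusted threshold, and 0 passed the adjusted one. Among Vehicle mice, 3 and 4 were the highest for Fasn, Acaca, Acly, Srebf1, Scd1, Scd2, Fads1 and Fads2 and the lowest for Elovl6. Leaving them out therefore had to raise the fold changes of the former genes and lower that of Elovl6. The counts and p-values of this comparison follow in part from that choice and are no test of NR. Over all 18671 genes tested without these mice, 767 were higher and 1042 lower, together 9.69%, and 0 passed the adjusted threshold by edgeR. Acaca had a log2 fold change of 0.29 (SE 0.07, unadjusted p = 0.00245, adjusted p = 0.296 by edgeR) and Fasn one of 0.28 (SE 0.10, unadjusted p = 0.0227, adjusted p = 0.413). Acly was at 0.15 (SE 0.07, unadjusted p = 0.0437, adjusted p = 0.498). Elovl6 was at 0.18 (unadjusted p = 0.0746) and Srebf1 at -0.14 (unadjusted p = 0.206), neither past the threshold without these mice. Scd2, Fads1 and Fads2 were between -0.08 and -0.01 on the log2 scale.

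Ratios within a library do not depend on the scaling of libraries, and 3 of them were compared with exact two-sided permutation tests over all labelings of the 10 mice, for which the smallest possible p is 0.00794. The log2 ratio of Scd1 to Scd2 was -1.75 ± 0.16 with NR and -1.73 ± 0.29 without (SD, n = 5 in each group, exact permutation p = 0.889, adjusted over the 3 ratios 0.889). Scd1 reads were thus 0.297 and 0.302 of those of Scd2. The log2 ratio of Fads1 to Fads2 was 1.95 ± 0.16 with NR and 1.81 ± 0.23 without (exact permutation p = 0.278, adjusted 0.476). Elovl6 to Fasn, elongation beside synthesis, gave -3.28 ± 0.22 with NR and -3.52 ± 0.47 without (exact permutation p = 0.317, adjusted 0.476). In each ratio the NR and Vehicle mice overlapped, and Vehicle 3 and 4 gave the lowest values of Fads1 to Fads2 and of Elovl6 to Fasn.

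Per length, Scd2 was by far the most abundant transcript of the group. Its median over the 10 mice was 243 CPM per kilobase, above 99.3% of tested genes, and its range of 216 to 297 did not meet that of Scd1, which had a median of 82.4 CPM per kilobase. Fads1 (51.0), Acly (50.0) and Srebf1 (49.7 CPM per kilobase) followed, then Fads2 (31.3) and Fasn (31.0), and the ranges of neighbours in this order overlapped from Fads1 down to Fasn. Scd1 did not overlap with Fads1, nor Fasn with Thrsp, at 15.6 CPM per kilobase. Elovl6 (5.12) and Acaca (3.78 CPM per kilobase) were the lowest, with ranges that overlapped each other and not that of Thrsp, and Acaca was above 44.4% of tested genes. The gene length in the files is shorter than the exons of GENCODE M21 for Fads1, at 3456 against 4812 bases, and for Fads2, at 1508 against 3295 bases. Dividing the same counts by the longer lengths put Fads1 at 36.6 and Fads2 at 14.3 CPM per kilobase, places 5 and 8 in the order. Reads in the added bases were not counted anew, so these values may be too low and do not re-rank the levels.

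**Figure D4:**
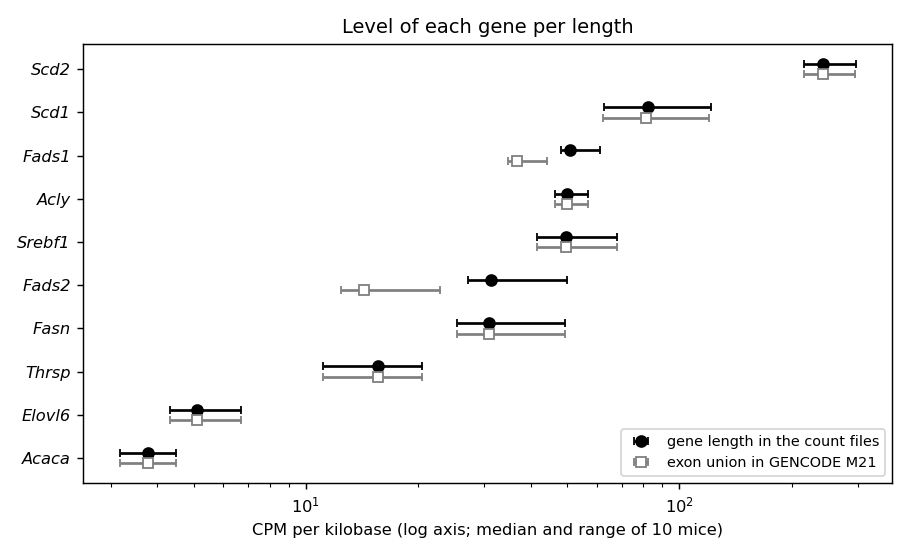
Level of each gene in CPM per kilobase (horizontal log axis), as the median (points) and range (bars) of the 10 mice, with the gene length in the count files (filled circles) and the exon length in GENCODE M21 (open squares). Scd2 has a median of 243 and Acaca one of 3.78, and only Fads1 and Fads2 move visibly with the length used. Both sets divide the same counts, and reads were not counted anew for the longer lengths.

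The wider pathway was described with 5 lists of other genes, of which 102 of 106 were tested. At the unadjusted threshold 5 were higher and 6 were lower, together 10.8%, beside 9.71% of all tested genes, and the median log2 fold change over them was -0.00. By edgeR 0 of the 102 passed the adjusted threshold, and by DESeq2 1 did, beside 103 of the 18329 tested genes. Of 16 other genes of synthesis and its supply of NADPH, 1 was higher and 0 were lower. That gene was Mid1ip1, a paralog of Thrsp whose product promotes acetyl-CoA carboxylase activity, at 96.2 ± 7.04 against 84.7 ± 8.31 CPM (log2 fold change 0.18, SE 0.08, adjusted p = 0.479 by edgeR). The most abundant of this list by the mean over both groups were Mdh1, Pgd and G6pdx, cytosolic dehydrogenases, with 709, 150.6 and 91.7 CPM in NR-treated mice and 646, 139 and 91.6 CPM in non-treated mice.

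Among the 19 other elongation and desaturation genes 2 were higher, Elovl2 and Degs1, and 1 was lower, Fads3. Degs1, which puts the double bond into ceramide, was at 125 ± 5.05 against 114 ± 5.53 CPM (log2 fold change 0.14, SE 0.05, adjusted p = 0.446 by edgeR). The list of 24 regulators of SREBP and its activity held 0 genes that were higher and 2 that were lower, with a median log2 fold change of -0.04. Lpcat3, which inserts polyunsaturated chains into phospholipids, had a log2 fold change of -0.34 (SE 0.12, adjusted p = 0.458 by edgeR), and Akt2, a kinase of the insulin pathway, one of -0.25 (SE 0.11, unadjusted p = 0.0431). Srebf2, the paralog that drives cholesterol synthesis, was at 219 CPM with NR and 215 CPM without. In cholesterol synthesis 0 of 22 genes passed in either direction by edgeR, and the median log2 fold change was 0.03.

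In triglyceride synthesis 2 of 21 genes were higher and 3 were lower, with a median log2 fold change of 0.03. Dgat2, which adds the last fatty acid to a triglyceride, was higher by a log2 fold change of 1.00 (SE 0.22), at 25.4 ± 9.81 CPM with NR and 12.7 ± 1.78 CPM without (SD, n = 5 in each group), and every NR mouse was above every Vehicle mouse. Its adjusted p was 0.370 by edgeR and 0.00761 by DESeq2. Agpat2, which makes phosphatidic acid, was also higher (0.24, SE 0.09), while Agpat5 (-0.17, SE 0.05) and the phosphatidate phosphatase Lpin2 (-0.22, SE 0.08) were among the lower genes on the log2 scale, each with an adjusted p above the threshold by edgeR.

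**Figure D5:**
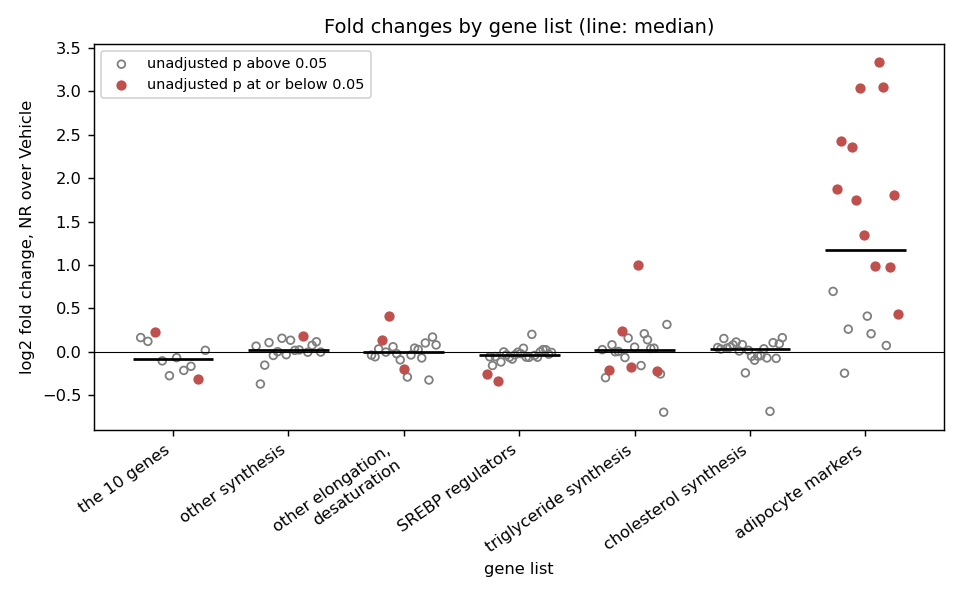
Log2 fold change, NR over Vehicle, by edgeR (vertical axis) of each tested gene in 7 lists (horizontal axis, points spread sideways for legibility), filled where the unadjusted p is at or below 0.05, with lines at the list medians. The medians of the 10 genes and the 5 other pathway lists lie between -0.09 and 0.03, and that of the adipocyte markers is 1.17.

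Markers of other cells that make or store fat were set beside these values. Of 20 adipocyte markers 18 were tested, 12 were higher in the NR-treated cochlea and 0 were lower, with a median log2 fold change of 1.17. Their summed CPM ranged from 561 to 1117 with NR and from 508 to 771 without, and Lep and Ucp1 had too few reads to be tested. Much of this sum was Car3, at 364 CPM with NR and 431 CPM without (log2 fold change -0.25, SE 0.24). The mean log2 CPM of the tested markers, which gives each marker the same weight, was 3.33 to 4.56 in NR mice and 2.19 to 3.10 in Vehicle mice. Plin1, the coat protein of fat droplets, was at 11.16 ± 9.12 against 1.36 ± 0.627 CPM, and Cidec, a protein of fat droplet fusion, at 7.02 ± 3.63 against 0.859 ± 0.557 CPM (adjusted p = 0.224 for both by edgeR). Of the 10 fatty acid genes, all of which fat tissue can express, Elovl6 was higher and Srebf1 lower in the same comparison by edgeR. Among 18 markers of Schwann cells and myelin 0 were higher and 2 were lower, with summed ranges of 7442 to 9428 CPM with NR and 7658 to 8574 CPM without. In skeletal muscle 9 of 13 tested markers were higher and 0 were lower, with 1502 and 1252 summed CPM in NR 3 and NR 5 and 274 to 513 CPM in the other 8 mice. For neurons 1 of 8 markers was higher and 0 were lower, with summed ranges of 5161 to 5778 CPM with NR and 3925 to 5893 CPM without, while 0 markers of oligodendrocytes (7 tested), marrow (12) and macrophages (8) passed by edgeR. The part of these cells in the levels of the fatty acid genes was not tested.

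The genes most like Elovl6, Srebf1 and Scd2 over the 10 mice were found by the correlation of log2 CPM, as a description in libraries that share their depth, group and tissue makeup. For Elovl6 they were Nav3 (r = 0.942), Shisa4 (r = 0.920) and Map4 (r = 0.902), which have the same sign of fold change. For Srebf1 they were Ptprk (r = 0.973), Prom2 (r = 0.972) and Otoa (r = 0.968), the last of which encodes otoancorin, a protein of the inner ear. For Scd2 they were Itih5 (r = 0.965), Ireb2 (r = 0.957) and Gm17322 (r = 0.955).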

How the data were processed

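RNA-seq of the cochlea of 5 NR-treated and 5 non-treated mice was analysed, with 1 library per mouse and groups taken from the sample labels. The authors deposited raw counts per gene, whole numbers with no normalization. Per the study's methods and the submitters' processing notes, reads were aligned to mm10 with STAR 2.6.1d and counted with featureCounts 1.5.0, and fastp, CASAVA and DESeq2 1.26.0 are named too. The annotation release is not given in the sources used here, and the counting did not use strand.

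Counts were filtered with filterByExpr, scaled with TMM and tested across 18329 genes with glmQLFit and glmQLFTest of edgeR 4.0.16 (R 4.3.3), with no covariate and Benjamini-Hochberg adjustment over all tested genes. The fit was tested on simulated data. Mice were group housed, and nothing says which shared a cage or litter. The p-values set the group difference against the spread between these mice, treating each mouse as independent, which was not tested. Same-numbered mice of the groups did not deviate together, with correlations from -0.220 to 0.170, and no libraries were duplicates. Libraries were compared in pairs by a chi-square statistic per gene. It was 73.9 to 120 in pairs with Vehicle 2 and 11.0 to 56.4 in all other pairs, so Vehicle 2 was the library least like the rest. Its TMM factor, 0.953, was also the lowest, and the cause was not tested. Total counts ranged from 17060379 to 24419230. Log2 CPM for likeness used a prior count of 2, and ratios used counts plus 0.5.

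The 10 genes and all lists were chosen with earlier results of these data known. The genes named are the 10, up to 4 genes per other list past an unadjusted p of 0.05, up to 3 of highest CPM, and the 3 genes most like the members with the lowest p and like Scd2. Plin1, Cidec, Car3, Slc26a5 and Xist were named as markers, and Elovl1, Elovl4, Elovl5 and Elovl7 as elongases, after their values were seen. The alternatives were DESeq2 1.42.0, its size factors, other filters, a robust fit, a block on the replicate number, each mouse left out, another pseudocount and other gene lengths, and, chosen after seeing the data, leaving out Vehicle 3 and 4.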

Additional observations from a re-analysis of the deposited data

Results flagged for a closer look

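In Elovl6 the lowest Vehicle mouse, Vehicle 3, lay far from the other 4, with a gap to the nearest of them that was 0.781 of the whole Vehicle range on the log2 CPM scale, above the critical value of 0.71 for 5 mice. It had 27.8 CPM, and the others had 31.4 to 32.6 CPM. Of 26 groups of 5 values examined this was the only 1, and chance flags about 1 in 20 such groups.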

How the results depend on the processing

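The 10 log2 fold changes were recomputed in 60 combinations of a gene and another tool, scaling, filter, dispersion or block, and 54 of them kept their direction and side of the unadjusted threshold. The number of higher genes, 1 with all mice, was 2 by DESeq2 and 2 with at least 10 reads required in every sample (Acly was added in both), 3 without Vehicle 3 and 4, and 1 to 3 with each mouse left out. The number of lower genes, 1 with all mice, was 2 by DESeq2 and 2 with a robust dispersion (Scd2 was added in both), 0 without Vehicle 3 and 4, and 0 to 2 with each mouse left out. Over all genes tested, 9.71% passed the unadjusted threshold with all mice, 10.5% by DESeq2, 9.78% with the filter of 10 reads, 9.67% with a robust dispersion, 9.69% without Vehicle 3 and 4, and 6.23% to 13.1% with each mouse left out. Without Vehicle 3 and 4 the log2 fold change of Fasn was 0.28 and that of Scd1 0.069, both turned from below 0. These mice were the highest for both genes, so leaving them out had to raise both fold changes. Leaving out each mouse gave -0.15 to 0.11 for Fasn, where 0.01 without Vehicle 3 and 0.11 without Vehicle 4 turned the sign, and -0.0892 to 0.13 for Thrsp, which turned without NR 2 (-0.0892), NR 3 (-0.0891) or Vehicle 1 (-0.0408). The difference in log2 ratio of Scd1 to Scd2, -0.02, was -0.13 to 0.0422 with each mouse left out, with 0.0348 without NR 5, 0.0413 without Vehicle 3 and 0.0422 without Vehicle 4, and 0.15 without both of the latter. Without both, the differences for Fads1 to Fads2 and Elovl6 to Fasn were -0.0054 and -0.0922, turned from 0.14 and 0.25. In the pathway lists 1 gene, Dgat2, passed the adjusted threshold by DESeq2 and 0 by edgeR, and with each mouse left out 3 to 7 genes were higher and 2 to 10 lower. The extremes came without NR 3 or Vehicle 3 (3 higher), NR 1 or NR 3 (2 lower) and NR 2 (10 lower). Dividing the same counts by the exon lengths of GENCODE M21, with no new count of reads, moved Fads1 to 36.6 and Fads2 to 14.3 CPM per kilobase. The cause of these shifts was not tested, except that the lengths themselves differ and that Fasn and Scd1 were highest in Vehicle 3 and 4.

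With the replicate number as a block, 0 genes were higher and 1, Srebf1, was lower, beside 9.03% of all tested genes in either direction. Elovl6 was then at 0.22 (unadjusted p = 0.0571 by edgeR) and Thrsp turned to -0.019, and the block moved no other call among the 10. The labels give only a number, the mice with the same number did not deviate together in every pair, and the pairing was not taken as real. With 5 mice in a group, standard errors of 0.06 to 0.18 on the log2 scale limit what could be called.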
